A study of Mus musculus with 8 samples.

Results

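The 10 genes described here encode the adaptors APPL1 and APPL2 (Appl1, Appl2), the adiponectin receptors (Adipor1, Adipor2), the insulin receptor (Insr), its substrates (Irs1, Irs2), the kinase AKT2 (Akt2) and the FoxO transcription factors FOXO1 and FOXO3 (Foxo1, Foxo3). They were taken by symbol from the 22609 genes counted in each library, and all 10 passed the filter on low counts. The set was chosen by the aged against young difference of Appl2 in these same libraries, and the comparison of age in these 10 genes is therefore a description and carries no test. RNA-Seq had been performed on the renal cortex of untreated male C57BL6 mice, 4 aged at 30 months and 4 young at 5 months by their labels, with 1 library per mouse. The labels and the methods of the study differ slightly on the age of the aged mice. Both groups were one strain and one sex, and whole cortex was used, so that a smaller number of cells of a type and less RNA per cell cannot be told apart.

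Adiponectin, a hormone made by adipocytes, binds ADIPOR1 and ADIPOR2, which activate AMPK and ceramidase activity. APPL1 binds the receptors and relays the signal to AMPK and to AKT, while APPL2 can pair with APPL1 on early endosomes and compete for the same receptors. Insulin activates INSR, IRS1 and IRS2 carry the signal to PI3-kinase and AKT, and AKT phosphorylates the FoxO factors, which then leave the nucleus, so that their target genes of fasting metabolism are silenced. The proximal tubule, which makes up most of the cortex, responds to insulin and makes glucose from FoxO-regulated genes such as Pck1.

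Appl2 stood at 1.64-fold its young level in aged mice, and it was the only one of the 10 genes to meet the thresholds used for all genes, which is a description here because that same difference chose the set. A call needed a Benjamini-Hochberg adjusted p under 0.05 in edgeR's quasi-likelihood test together with a change of over 1.5-fold, which 2.06% of all 13944 genes tested met, 1.17% on the higher side. In 3 of the 10 genes the 4 aged and the 4 young mice did not overlap. These were Appl2 and Irs1, which were higher in aged mice, and Adipor1, which was lower. Over all genes 18.9% showed such separation, 8.85% on the higher side. The log2 fold changes of the 10 genes, aged against young, ran from -0.19 for Adipor1 to 1.27 for Irs2, with a median of 0.31, beside 0.03 over all genes tested. Levels are given as CPM, which are counts scaled by library size and TMM factors, and means are given ± SD over the mice of a group. The SE is the standard error of a fitted log2 fold change.

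The libraries held 14820804 to 19821429 read pairs on genes, and the floor of 3 counts stood at 0.147 to 0.204 CPM after TMM scaling, which covers counting error only. Each of the 10 genes had at least 491 counts in every library. Aged mouse 1 lay apart from the other mice at -71.5 on the first principal component, which held 48.1% of the variance, against -16.3 to 26.2 for the rest, and its summed CPM of 10 proximal tubule genes was 0.499 times the mean of the other aged mice. The clock genes Arntl and Dbp were also called between the groups, with log2 fold changes of 2.73 and -2.63. The part of either in the results below was not tested.

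Promoter sequences were available for 8 of the 10 genes, from 250 bases before to 50 after the start in RefSeq on GRCm38.p6. Those of 4 genes are shown: Appl2 (chr10:83648615-83648914, minus strand), Irs1 (chr1:82291390-82291689, minus strand), Irs2 (chr8:11008880-11009179, minus strand) and Adipor2 (chr6:119388685-119388984, minus strand). Capitals mark matches, on either strand, to the FoxO element GTAAACA, the E-box CACGTG, the CREB element TGACGTCA or the GC box GGGCGG.
Appl2: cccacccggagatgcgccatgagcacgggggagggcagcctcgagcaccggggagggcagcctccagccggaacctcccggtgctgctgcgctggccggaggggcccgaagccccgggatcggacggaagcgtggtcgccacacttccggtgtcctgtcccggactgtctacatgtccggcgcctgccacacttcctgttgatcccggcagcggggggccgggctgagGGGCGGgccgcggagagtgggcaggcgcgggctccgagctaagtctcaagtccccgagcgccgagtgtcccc
Irs1: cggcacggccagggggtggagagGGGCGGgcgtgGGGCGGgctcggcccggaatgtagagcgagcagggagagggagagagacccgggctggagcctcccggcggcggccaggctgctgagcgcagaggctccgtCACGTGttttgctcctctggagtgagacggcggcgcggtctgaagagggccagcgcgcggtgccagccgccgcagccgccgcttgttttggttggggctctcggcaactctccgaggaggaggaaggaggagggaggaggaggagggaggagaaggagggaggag
Irs2: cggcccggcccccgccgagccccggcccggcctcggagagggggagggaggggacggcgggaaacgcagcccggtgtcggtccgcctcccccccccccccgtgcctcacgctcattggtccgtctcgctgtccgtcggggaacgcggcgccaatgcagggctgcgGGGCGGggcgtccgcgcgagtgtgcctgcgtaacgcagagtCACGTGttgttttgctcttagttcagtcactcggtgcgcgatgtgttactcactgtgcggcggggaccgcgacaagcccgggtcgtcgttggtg
Adipor2: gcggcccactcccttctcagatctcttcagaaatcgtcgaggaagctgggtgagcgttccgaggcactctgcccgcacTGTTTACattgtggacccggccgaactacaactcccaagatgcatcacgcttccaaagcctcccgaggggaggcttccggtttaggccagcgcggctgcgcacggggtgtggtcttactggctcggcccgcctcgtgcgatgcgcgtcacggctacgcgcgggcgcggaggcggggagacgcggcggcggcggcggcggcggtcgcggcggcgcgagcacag
These 4 promoters were rich in G and C, at 73.0% for Appl2, 71.3% for Irs1, 72.0% for Irs2 and 68.7% for Adipor2, beside a median of 52.7% over the 32851 promoters of the table. The Appl2 window held 1 GC box, at -22 from the start, and none of the other 3 motifs. Both insulin receptor substrates carried an E-box, at -115 in Irs1 and at -44 in Irs2, while 7.15% of all promoters held one. The FoxO element was found in Adipor2, at -172, and in the second of the promoters listed for Adipor1, at 37, against 3.65% of all promoters. GC boxes occurred in 35.7% of all promoters, and Foxo1 and Foxo3 held 5 each. The CREB element, present in 1.79% of all promoters, matched in none of the 12 promoters of these genes. A match describes letters only.

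Appl2, on chromosome 10 of mm9 (83062778 to 83111483, minus strand, 21 exons), encodes an adaptor that binds phosphoinositides and the small GTPases RAB5 and RAB21 on early endosomes. Its level was 59.7, 57.8, 58.6 and 60.7 CPM in aged mice 1 to 4 and 33.6, 38.5, 38.9 and 33.6 CPM in young mice 1 to 4. No young mouse reached the lowest aged mouse, and the aged mice were closer to each other than the young. The aged mean was 59.2 ± 1.28 CPM (n = 4) and the young mean 36.2 ± 2.95 CPM (n = 4), which gave a log2 fold change of 0.71 (SE 0.08), or 1.64-fold. The coefficient of variation of Appl2 was 2.16% in aged mice, where counting error alone gives 3.07%, and 8.16% in young mice, where it gives 4.10%. The counts behind these levels ran from 888 to 1216 in aged and from 545 to 728 in young mice. Without aged mouse 1 the log2 fold change of Appl2 was 0.71 (SE 0.08).

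Appl1, on chromosome 14 (27732174 to 27784418, minus strand), encodes the related adaptor that couples the adiponectin receptors to AMPK and AKT. It stood at 69.1, 68.5, 54.1 and 62.5 CPM in aged mice and at 60.1, 56.0, 59.6 and 58.0 CPM in young mice. The groups overlapped, since aged mouse 3 was lower than all young mice and the other aged mice were higher. The log2 fold change of Appl1 was 0.12 (SE 0.09). The coding sequences of Appl1 and Appl2 were identical at 58.9% of 1973 aligned positions and shared no stretch of 50 nt, and neither transcript held a copy of at least 98% identity over 100 nt elsewhere in mm9.

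**Figure D1:**
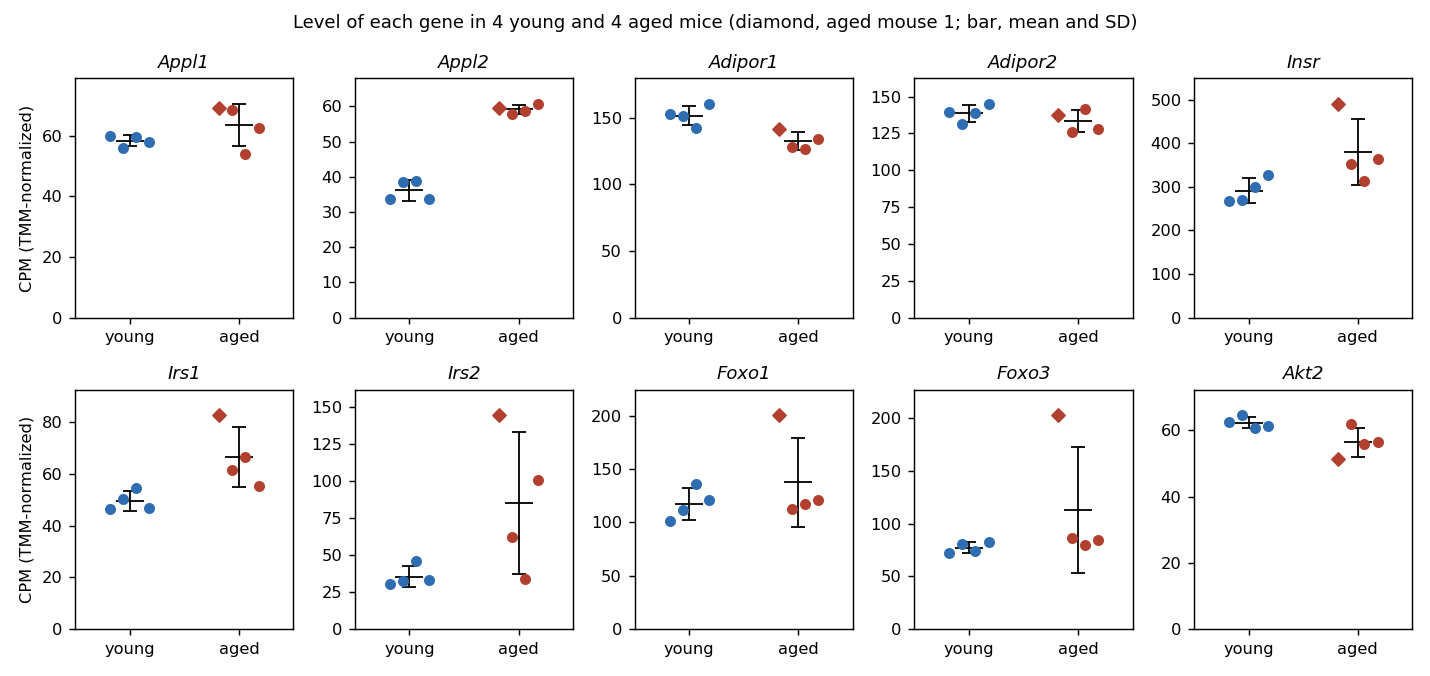
Level of each of the 10 genes in CPM on linear axes that start at 0, with 1 point per mouse (young blue, aged red, aged mouse 1 as a diamond) and bars for the mean and SD. Appl2 is the gene in which the aged mice, at 57.8 to 60.7 CPM, lie far above the young mice, at 33.6 to 38.9 CPM. Aged mouse 1 is the highest point for Insr, Irs1, Irs2, Foxo1 and Foxo3, and by a small margin for Appl1 (69.1 CPM, with aged mouse 2 at 68.5 CPM).

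Neither adiponectin receptor was called. Adipor1, on chromosome 1 (136311955 to 136329928, plus strand), stood at 141, 128, 126 and 134 CPM in aged mice and at 152, 151, 142 and 160 CPM in young mice. All aged mice lay below all young mice, although aged mouse 1 at 141 CPM and young mouse 3 at 142 CPM were almost equal. The means were 132 ± 6.87 CPM (n = 4) and 152 ± 7.40 CPM (n = 4), with a log2 fold change of -0.19 (SE 0.07). Adipor2, on chromosome 6 (119303168 to 119367501, minus strand), stood at 137, 126, 142 and 128 CPM in aged mice and at 139, 131, 139 and 145 CPM in young mice. The groups overlapped, and its log2 fold change was -0.06 (SE 0.07). With library sizes alone as the scaling, a choice that shifted the median of all genes by 0.11, Adipor1 stood at -0.08 and Adipor2 at 0.06, so the sign for Adipor2 depended on the scaling.

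Insr, on chromosome 8 (3150922 to 3279617, minus strand), had the most counts of the 10 genes. Its level was 490, 352, 315 and 364 CPM in aged mice and 269, 269, 300 and 328 CPM in young mice. Aged mouse 1 was highest, and aged mouse 3 fell within the young range. The log2 fold change of Insr was 0.38 (SE 0.14) with all mice and 0.24 (SE 0.09) without aged mouse 1.

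Irs1, on chromosome 1 (82229676 to 82287991, minus strand), stood at 82.7, 61.5, 66.4 and 55.4 CPM in aged mice and at 46.3, 50.5, 54.7 and 46.9 CPM in young mice. The groups were separate by the small gap between aged mouse 4 and young mouse 3, and aged mouse 1 was again highest. Its means were 66.5 ± 11.7 CPM (n = 4) in aged and 49.6 ± 3.90 CPM (n = 4) in young mice. Irs1 had a log2 fold change of 0.42 (SE 0.13), or of 0.30 (SE 0.09) without aged mouse 1.

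Irs2, on chromosome 8 (10986980 to 11008458, minus strand), is the substrate whose transcription rises with fasting in liver. It stood at 144, 61.9, 33.8 and 101 CPM in aged mice and at 30.3, 32.4, 46.2 and 32.8 CPM in young mice. Of the 10 genes Irs2 had the largest log2 fold change, 1.27 (SE 0.38), and also the widest spread. Its coefficient of variation was 56.4% among aged mice, where counting error gives 2.96%, and aged mouse 3 lay inside the young range. Without aged mouse 1 the log2 fold change was 0.89 (SE 0.32). The sequences of Irs1 and Irs2 were identical at 60.6% of 3359 aligned coding positions.

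**Figure D2:**
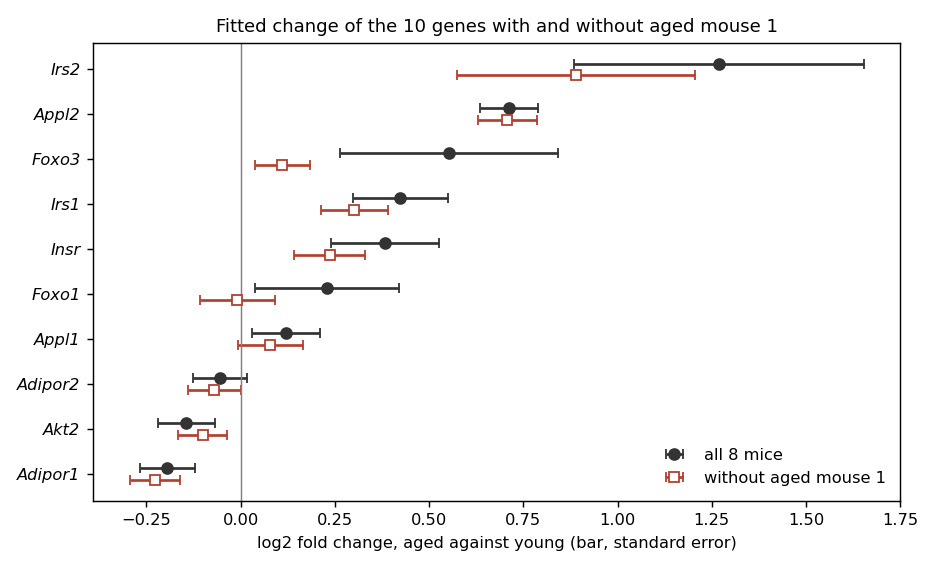
Fitted log2 fold change of each gene, aged against young, from edgeR (points, with bars for 1 standard error), with all 8 mice in black and without aged mouse 1 in red open squares. Appl2 is at 0.71 in both fits, Foxo3 goes from 0.55 to 0.11 and Foxo1 from 0.23 to -0.01.

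Akt2, on chromosome 7 (28376571 to 28425845, plus strand), encodes the AKT isoform most closely tied to glucose uptake. It stood at 51.3, 62.1, 55.9 and 56.4 CPM in aged mice and at 62.6, 64.5, 60.7 and 61.4 CPM in young mice. Only aged mouse 2 reached the young range. The log2 fold change of Akt2 was -0.14 (SE 0.08), and aged mouse 1 held the lowest value here.

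Foxo1, on chromosome 3 (52072259 to 52154031, plus strand), stood at 200.3, 112, 117 and 121 CPM in aged mice and at 101, 111, 136 and 121 CPM in young mice. Apart from aged mouse 1 the aged mice lay inside the young range. Foxo3, on chromosome 10 (41901647 to 41996561, minus strand), stood at 203, 86.0, 79.9 and 84.1 CPM in aged mice and at 71.9, 80.2, 73.8 and 82.9 CPM in young mice. Here too aged mouse 1 stood alone, at 2.43 times the mean of the other aged mice. The log2 fold change of Foxo3 was 0.55 (SE 0.29) with aged mouse 1 and 0.11 (SE 0.07) without it. That of Foxo1 was 0.23 (SE 0.19) and -0.01 (SE 0.10).

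Several of these values rested on aged mouse 1. It was the highest of all 8 mice in 6 of the 10 genes (60.0%), against 28.4% of all genes tested, and it exceeded the mean of the other aged mice by more than 1.5 times in Irs2, Foxo1 and Foxo3. For Appl2 it stood at 1.01 times that mean, and for Akt2 at 0.882 times. Without it 6 of the 10 log2 fold changes were positive rather than 7, their median was 0.09, and the groups did not overlap in 3 genes, where 23.9% of all genes did not.

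Several targets of the FoxO factors had their highest level in the same mouse. Of the 20 FoxO factors and target genes tested, 13 were highest in aged mouse 1 (65.0%), beside the 28.4% over all genes. This was not particular to FoxO targets. The share was 52.0% in the adiponectin and AMPK list and 47.1% in the list next to the insulin receptor, both described below. It was 33.3% for AKT and mTOR, 25.0% for PI3-kinase and 17.6% for APPL partners, and 41.7% over all 6 lists. The following were picked after their values were seen. Pdk4, which restrains pyruvate oxidation in fasting, stood at 892 CPM in aged mouse 1, at 24.9, 60.8 and 44.3 CPM in the other aged mice, and at 14.1 to 29.5 CPM in young mice. Txnip, an inhibitor of glucose uptake, stood at 1439 CPM against 247 to 383 CPM in the other aged mice. Pck1, the rate-limiting enzyme of gluconeogenesis, reached 4706 CPM in aged mouse 1, while the other aged mice, at 1023 to 1144 CPM, lay below the young mice, at 1631 to 2484 CPM. Its log2 fold change was 0.02 (SE 0.49) with all mice and -0.85 (SE 0.14) without aged mouse 1. The sum of the adipocyte markers given below was also highest in aged mouse 1, at 836 CPM against 92.7 to 198 CPM in the other aged mice. Of these markers only Lep was not highest there, with 2 counts against 7 to 19 in the other aged mice. The part of the adipocyte markers in the values above was not tested. Not all targets were high in aged mouse 1. Sod2, a mitochondrial superoxide dismutase, stood at 269 CPM there, below the young range of 393 to 419 CPM.

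**Figure D3:**
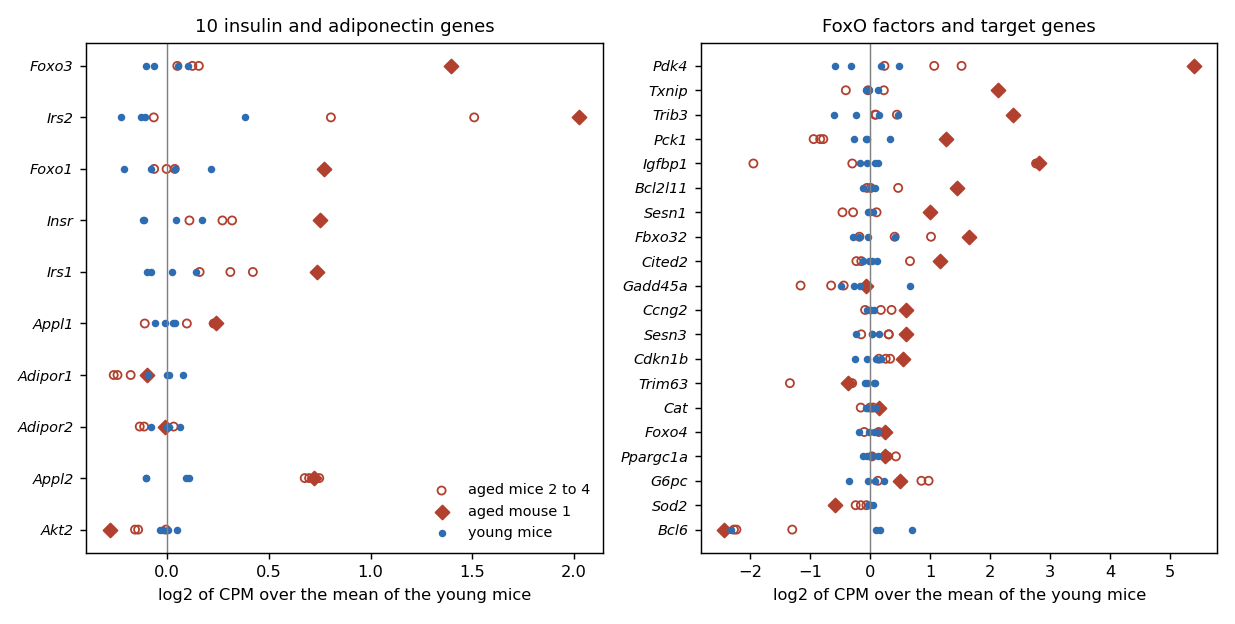
Log2 of each gene's CPM over the mean of the young mice, with the 10 genes on the left and 20 FoxO factors and target genes on the right (blue points, young mice, red open circles, aged mice 2 to 4, red diamond, aged mouse 1). Aged mouse 1 is the highest point for 6 of the 10 genes and 13 of the 20, and the 4 aged mice coincide for Appl2.

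Levels were compared between genes only per length, as CPM per kb of annotated exon. In young mice the receptors led, with means ± SD of 33.2 ± 1.34 for Adipor2, 30.2 ± 2.93 for Insr and 30.2 ± 1.47 for Adipor1 (n = 4), and their ranges overlapped. Foxo1 followed at 21.2 and was separate from its neighbours on both sides. Next came Foxo3 at 10.7, Irs2 at 8.80 and Akt2 at 8.74, and the range of Irs2 overlapped those of both neighbours. The lowest were Appl1 at 6.70, Appl2 at 6.06 and Irs1 at 5.43, again with overlapping ranges between neighbours. In aged mice Insr led at 39.3, and Appl2 at 9.92 lay above Akt2 at 7.91, Appl1 at 7.29 and Irs1 at 7.28. The order depends on the length used, and the annotated exons of Irs2 span only 4.024 kb, nearly all coding.

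**Figure D4:**
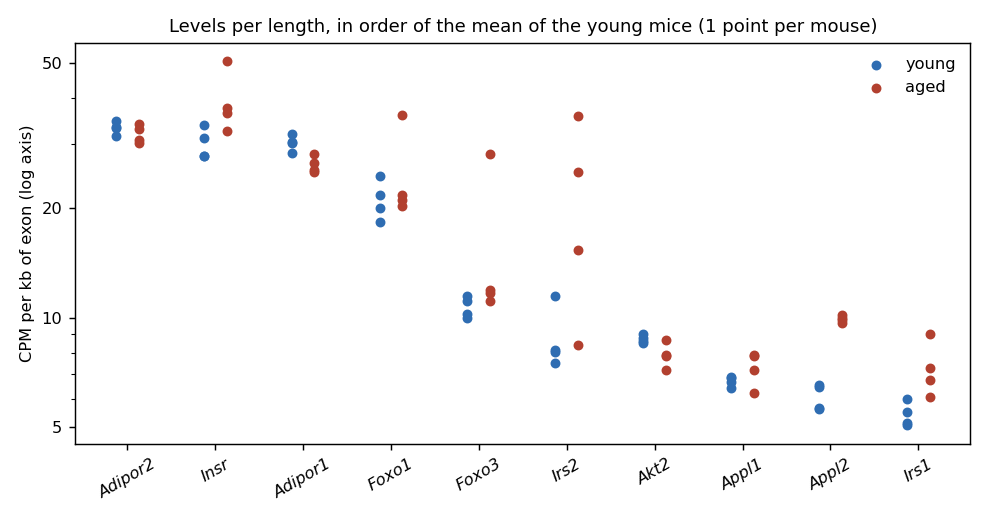
Level of the 10 genes in CPM per kb of exon on a log axis, with 1 point per mouse, ordered by the mean of the young mice. Young mice run from about 33.2 for Adipor2 down to 5.43 for Irs1, and the aged mice stand clear of the young mice for Appl2.

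Within each mouse the paired genes were compared by their log2 ratio per kb, with a two-sided exact sign-flip permutation test over the 8 mice, adjusted over 5 pairs, for which 0.00781 is the smallest unadjusted p possible. Adipor2 exceeded Adipor1 in 8 of 8 mice, with a ratio of Adipor1 to Adipor2 of -0.21 ± 0.11 (SD, n = 8, exact permutation test, adjusted p = 0.00977). With the longest transcript as the length the ratio turned to 0.26 (exact permutation test, adjusted p = 0.00781). With the coding length it turned to 0.10 (exact permutation test, adjusted p = 0.0781). The order of the 2 receptors therefore depended on the length used, and the p-values do not cover the choice of length. By the annotated exons Irs2 exceeded Irs1 in 8 of 8 mice, with -1.02 ± 0.68 for Irs1 to Irs2 (SD, n = 8, exact permutation test, adjusted p = 0.00977). By coding length, a choice made after the data were seen, that ratio turned to 0.27 (exact permutation test, adjusted p = 0.297), so the order of Irs1 and Irs2 depended on the length used. Foxo1 exceeded Foxo3 in 8 of 8 mice by 0.86 ± 0.25 (SD, n = 8, exact permutation test, adjusted p = 0.00977). Akt1, the more widely expressed AKT isoform, exceeded Akt2 in 8 of 8 mice by 1.36 ± 0.15 (SD, n = 8, exact permutation test, adjusted p = 0.00977). The ratio of Appl1 to Appl2 was -0.15 ± 0.35 over all mice (SD, n = 8, exact permutation test, adjusted p = 0.25). With the longest transcript it was -0.78, with Appl2 higher (exact permutation test, adjusted p = 0.00781). With the coding length it was 0.30 (exact permutation test, adjusted p = 0.0781), so this order too depended on the length. The aged mice enter these ratios with the Appl2 level that chose the set, so the p-values of this pair carry no support. By annotated exons the ratio of Appl1 to Appl2 ran from -0.66 to -0.30 in aged mice and from -0.01 to 0.29 in young mice, which restates that same difference. For Foxo1 to Foxo3 and Akt1 to Akt2 the coding length gave 0.52 and 0.57, again above 0 in 8 of 8 mice (exact permutation test, adjusted p = 0.0195 for both).

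The wider pathways were covered by 6 lists of 121 genes, of which 115 were tested. None of the 115 was called by edgeR, where 2.06% of all genes were. DESeq2 called 8 of the 115 and 6.26% of all genes, and limma-voom 2 of the 115 and 3.46% of all genes. At an unadjusted p below 0.05 there were 30 genes, 20 higher and 10 lower, which is 26.1% of the 115 beside 25.5% of all genes. The groups did not overlap in 20 of the 115 (17.4%), 9 higher and 11 lower, beside 18.9% of all genes. The median log2 fold change of the 115 genes was 0.08.

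Of 17 genes acting next to the insulin receptor, 1 had an unadjusted p below 0.05, beside 25.5% of all genes. This was Sh2b1, an adaptor that promotes signaling from the receptor, at 59.0, 58.9, 72.2 and 60.0 CPM in aged and 46.0 to 51.0 CPM in young mice. All aged mice were above all young mice for Sh2b1, with a log2 fold change of 0.35 (SE 0.09, edgeR quasi-likelihood adjusted p = 0.0621). Of 12 genes of PI3-kinase and phosphoinositide turnover, 4 had an unadjusted p below 0.05, beside the same 25.5%. The smallest p belonged to Inpp5k, a phosphatase that removes the lipid product of PI3-kinase, at 76.0, 46.1, 49.1 and 50.7 CPM in aged and 38.3, 37.7, 36.7 and 32.2 CPM in young mice. Its groups did not overlap, and its log2 fold change was 0.61 (SE 0.16, edgeR adjusted p = 0.0671).

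Of 24 genes of AKT and the mTOR complexes, 9 had an unadjusted p below 0.05, beside 25.5% of all genes. In 9 the groups did not overlap (37.5%), beside 18.9% of all genes, with 5 higher and 4 lower. That share was picked as the highest of the 6 lists after the values were seen, and the median log2 fold change of the list was 0.04. Tsc1, Rictor, Deptor and Phlpp1 were among those on the higher side, and Rheb, Mapkap1, Akt1s1 and Eif4e were on the lower side, all of them other than Deptor picked after their values were seen. Deptor, which binds and inhibits mTOR, had the smallest p, at 156, 111, 108 and 112 CPM in aged and 77.5, 84.0, 85.1 and 91.2 CPM in young mice. Its log2 fold change was 0.53 (SE 0.13, edgeR adjusted p = 0.0597). Among the FoxO list 7 of 20 genes had an unadjusted p below 0.05, beside 25.5% of all genes. The smallest p there was that of Bcl6, a transcriptional repressor, at 22.9, 50.2, 26.3 and 25.6 CPM in aged and 201, 131, 24.8 and 138 CPM in young mice. Young mouse 3 stood at the level of the aged mice for Bcl6, and the log2 fold change was -1.99 (SE 0.54, edgeR adjusted p = 0.0742).

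In the adiponectin and AMPK list 8 of 25 genes had an unadjusted p below 0.05, beside 25.5% of all genes. Stradb, a partner of the AMPK-activating kinase LKB1, was the only one of the 115 with an adjusted p below 0.05 (2.95% of all genes), and its fold change stayed under 1.5. It stood at 28.4, 30.6, 36.3 and 35.9 CPM in aged and 46.2, 44.3, 51.3 and 52.3 CPM in young mice. The groups did not overlap, with a log2 fold change of -0.57 (SE 0.10, edgeR adjusted p = 0.0361), and the adjusted p ran from 2.26e-04 with DESeq2 to 0.124 without young mouse 4. Paqr7 and Paqr9, relatives of the adiponectin receptors that were picked after their values were seen, also lay below all young mice in every aged mouse. Paqr7 stood at 56.0 ± 21.3 CPM (n = 4) in aged and 109 ± 15.3 CPM (n = 4) in young mice, with a log2 fold change of -0.96 (SE 0.25, edgeR adjusted p = 0.0696). Paqr9 stood at 84.9 ± 19.5 CPM (n = 4) and 135 ± 10.1 CPM (n = 4), with -0.67 (SE 0.16, edgeR adjusted p = 0.0549). Of 17 APPL partners and early endosome genes 1 had an unadjusted p below 0.05, beside 25.5% of all genes. It was Snx1, a sorting nexin, with a log2 fold change of -0.38 (SE 0.15, edgeR adjusted p = 0.159). In aged mice Snx1 ran from 49.7 to 78.6 CPM and in young mice from 78.5 to 101 CPM.

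The ligand of the adiponectin receptors was counted at low levels. Adipoq stood at 37.6, 10.02, 1.55 and 6.10 CPM in aged mice and at 0.863, 1.48, 0.204 and 2.60 CPM in young mice, the lowest of which rested on 3 counts. Aged mouse 3 lay within the young range, and the log2 fold change of Adipoq was 3.40 (SE 0.96, edgeR adjusted p = 0.0818), or 2.15 (SE 0.70) without aged mouse 1. The summed level of 9 adipocyte markers was 836, 198, 92.7 and 151 CPM in aged mice and 91.4, 91.8, 81.9 and 143 CPM in young mice, and 0 of the 7 markers tested were called, although all 7 had a positive log2 fold change. Most of the sum came from 1 marker, Pnpla2, at 495, 111, 78.7 and 91.4 CPM in aged mice and 80.0, 75.8, 75.8 and 109 CPM in young mice. The sums therefore say little about the other markers, which were low in young mice. Ucp1, the uncoupling protein of brown adipocytes, had 345 counts in aged mouse 1, 1 to 4 in the other aged mice and 0 in the young mice. Appl2 was at 58.6 CPM in aged mouse 3, where Adipoq was 1.55 CPM, and at 59.7 CPM in aged mouse 1. Irs2 in aged mouse 3, at 33.8 CPM, lay with the young mice, and Irs2 and Insr were highest in aged mouse 1, where Adipoq was highest. The part of adipocyte RNA in the values of Appl2, Irs2, Insr and the other genes was not tested.

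**Figure D5:**
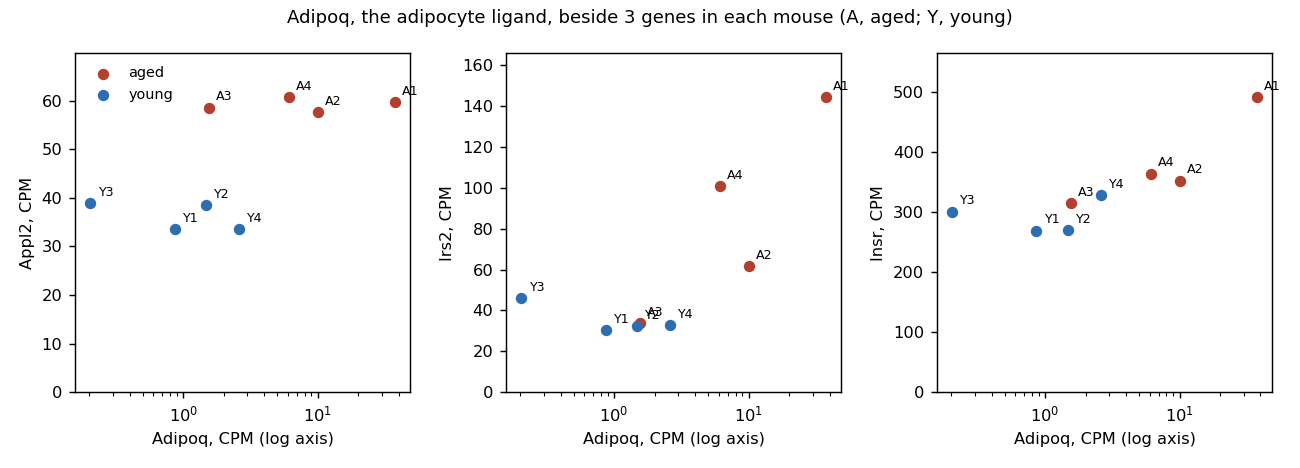
Level of Appl2, Irs2 and Insr (CPM, linear axes from 0) against that of Adipoq (CPM, log axis) in each mouse (A, aged, red, Y, young, blue, with the mouse number). Appl2 is at 57.8 to 60.7 CPM in the 4 aged mice whether Adipoq is at 1.55 or at 37.6 CPM, while Irs2 runs from 33.8 to 144 CPM in the same mice.

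Markers of the kidney cells were present in every library. The 10 proximal tubule markers summed to 15905 CPM in aged mouse 1 and to 29628 to 35794 CPM in the other aged mice, with 31318 to 37107 CPM in young mice, and 0 of them were called. The sums for 5 thick ascending limb markers were 2222 to 3729 CPM in aged and 3082 to 5249 CPM in young mice. For 7 collecting duct markers they were 370 to 486 CPM and 377 to 443 CPM, for 5 podocyte markers 315 to 611 CPM and 434 to 530 CPM, for 6 endothelial markers 383 to 565 CPM and 449 to 493 CPM, and for 6 fibroblast markers 223 to 364 CPM and 286 to 355 CPM. None of these was called. The 9 leukocyte markers counted summed to 87.8 to 161 CPM in aged and 60.7 to 88.2 CPM in young mice. Of the 8 tested 1 was called, Igj, the joining chain of antibodies, with a log2 fold change of 2.65. Igj alone stood at 35.9, 34.0, 96.5 and 31.1 CPM in aged and 5.29 to 13.6 CPM in young mice. The sums therefore say little about the other markers, although all 8 tested had a positive log2 fold change. Ptprc was lowest in aged mouse 1, at 14.0 CPM, against 24.7 to 39.8 CPM in the other aged mice and 19.4 to 24.3 CPM in young mice. The part of these cell types in the levels of the 10 genes was not tested.

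The genes most like Appl2 were sought among 11131 genes with a mean of at least 5 CPM, by Pearson's r of log2 CPM over the 8 mice after the mean of each group was subtracted. The highest were Mast4 (r = 0.93), Vps72 (r = 0.92), Fbxl17 (r = 0.90), Spopl (r = 0.90) and Fastkd3 (r = 0.90), and the lowest were Man1c1 (r = -0.96), Arhgef40 (r = -0.95) and Pgrmc2 (r = -0.95). The other 9 genes of the set lay between -0.40 for Adipor2 and 0.35 for Irs1. These values rest on 8 mice that share library depth, and on a spread of Appl2 within the aged mice no larger than counting error, and they are a description of the best among many genes.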

How the data were processed

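RNA-Seq counts from cortex of 4 aged and 4 young mice were used, with groups and replicate numbers taken from the sample labels. The authors depleted ribosomal RNA, sequenced stranded libraries as paired ends, aligned them to mm9 with TopHat2 and used HTSeq-count, strand-specific, for RefSeq genes, and deposited raw counts per gene without normalization (CASAVA 1.8.2 and SAMtools are also in the submitters' processing notes, other versions are not given in the sources used here). The joint table and the sample tables held the same values (180912 of 180912), and the sample tables were used. The 5 lines naming no gene were left out. Pairs on no gene made up 20.0% to 29.9% of a library, pairs aligned to several places 34.3% to 39.1% and ambiguous pairs at most 0.346%.

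The counts were tested in R 4.3.3 with edgeR 4.0.16 (quasi-likelihood, TMM, filterByExpr with a minimum count of 10, no covariate) over all 8 libraries, with Benjamini-Hochberg adjustment over 13944 genes. Calls required an adjusted p under 0.05 together with a change of over 1.5-fold. The p-values measure only the spread between these mice. The 10 genes, the pathway and marker lists and the tests were chosen with earlier results of these data known. Named were the 10 genes, in each pathway list the genes with an adjusted p below 0.05 or else the gene with the smallest p, and the 5 most and 3 least similar genes to Appl2. Other genes named are said to be picked after their values were seen, are marker or clock genes, or are those behind small counts.

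As alternatives, the fits were repeated with DESeq2 1.42.0, with its size factors, with library size only, with upper-quartile scaling, with limma-voom (limma 3.58.1) and sample quality weights, with other count filters, no fold threshold, the replicate number as a block and each mouse left out in turn, and for ratios the longest transcript or 1 age group. The coding length for ratios and separation of the groups without aged mouse 1 were added after the data were seen. On simulated counts of 13848 genes for aged against young, edgeR recovered 68.8% of genes changed by 1 on the log2 scale and 84.6% of those changed by 1.5, with 5.52% of calls false, limma-voom 70.8% and 82.7% with 5.52% false, and DESeq2 83.3% and 88.5% with 16.5% false. These counts were drawn independently for each gene, with no mouse set apart across genes as aged mouse 1 was. The rates may therefore differ in the real libraries. Gene coordinates and lengths came from GENCODE on NCBIM37 (mm9), whose exons may differ from the RefSeq exons counted, copies were sought with BLAST 2.17.0 and coding sequences aligned with MAFFT 7.526 from Python 3.11.15. Opposite-strand genes overlap Foxo1, Insr, Irs1 and Irs2, and counting was by strand.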

Additional observations from a re-analysis of the deposited data

Results flagged for a closer look

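In groups of 4 mice, a mouse was singled out where its gap to the nearest other mouse, as a share of the whole range of the group, exceeded Dixon's critical value. Of 44 groups examined 10 met this, where chance gives about 1 in 20, or 2.2. Foxo3 in aged mice (gap of 0.950 of the range), Foxo1 in aged mice (0.907), Deptor in aged mice (0.913) and Inpp5k in aged mice (0.846) were each highest in aged mouse 1, as was the summed level of the adipocyte markers (0.858). Sh2b1 was far highest in aged mouse 3 (0.921) and Bcl6 among aged mice in aged mouse 2 (0.875). Among young mice, Irs2 (0.842) and the log2 ratio of Foxo1 to Foxo3 (0.830) were highest in young mouse 3, and the summed adipocyte markers in young mouse 4 (0.838). Irs2 in that young mouse 3 stood at 46.2 CPM.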

How the results depend on the processing

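The log2 fold change of Appl2, by which the set was chosen, ran from 0.68 to 0.82 over its 16 alternative fits, and it met the thresholds in 14, which is no independent support. Of the 10 genes DESeq2 called 2, Appl2 and Irs2. With 1 mouse left out the count ran from 0 to 1, and it was 0 without young mouse 1 and without young mouse 4, where edgeR called 8 and 12 genes in all. Of the 160 fits of single genes of the set, 4 moved by more than the spread, all with library size only: Appl2 to 0.82, Adipor1 to -0.08, Adipor2 to 0.06 and Akt2 to -0.03. The spread was the SD of log2 CPM within the groups, which aged mouse 1 itself widened for Irs2, Foxo1 and Foxo3. Their fits without that mouse, at 0.89, -0.01 and 0.11, were therefore not counted as moved. This count does not rank the genes by how steady they were. Among the 115 pathway genes, 0 by the main test, library size only called 4 (3.50% of all genes), DESeq2 8 (6.26% of all genes, Inpp5k, Inpp5d, Mtor, G6pc, Bcl6, Adipoq, Paqr7 and Paqr9), limma-voom 2 (3.46% of all genes, Paqr7 and Paqr9) and no fold threshold 1 (2.95% of all genes, Stradb). With 1 mouse left out the count ran from 0 to 4, with 2 without aged mouse 1 (3.17% of all genes, Trib1 and Pck1), 4 without aged mouse 4 (5.21% of all genes, Mtor, Stradb, Paqr7 and Paqr9) and 1 without young mouse 3 (0.099% of all genes, Bcl6). Over all genes 287 were called, and between 8 without young mouse 1 and 873 with DESeq2. The cause was not tested.

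The log2 ratio of Appl1 to Appl2 was 0.15 in young mice only and -0.78 with the longest transcript, and that of Adipor1 to Adipor2 was 0.26 with the longest transcript. With the coding length, chosen after the data were seen, Appl1 to Appl2 was 0.30, Adipor1 to Adipor2 0.10 and Irs1 to Irs2 0.27. With 1 mouse left out the ratios ran from -0.22 to -0.08 for Appl1 to Appl2 and from -0.23 to -0.18 for Adipor1 to Adipor2. Irs1 to Irs2 ran from -1.14 to -0.87, Foxo1 to Foxo3 from 0.80 to 0.93 and Akt1 to Akt2 from 1.33 to 1.39. With 1 age group of 4 mice the permutation test cannot reach 0.05.

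The replicate numbers were not taken as pairs in the main fit. Same-numbered mice correlated at -0.03 to 0.21 in their deviations from the group means, and 2 of 4 pairs exceeded 0.1. Different-numbered mice correlated at -0.30 to 0.17, and the highest values were those of the mice numbered 1, at 0.21, and 3, at 0.20. With so few mice these values cannot decide whether the numbers paired them. With the replicate block, 1 of the 10 genes was called (Appl2), 0 of the pathway genes and 130 genes in all.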
